A study of Mus musculus with 39 samples.

Results

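Livers of mice lacking Bmal1 in hepatocytes (BLKO) were compared with livers of control mice (Alb), both taken after the animals had breathed 6% oxygen for 4 h from circadian time 4 (CT4). The comparison was chosen by the genotype, time and oxygen labels and held 3 BLKO and 3 Alb libraries, 6 of the 39 samples of the series and of the 36 with counts. BLKO animals were labelled Alb-Cre+ Bmal1fl/fl and Alb animals Alb-Cre, so that both groups carried Cre recombinase under the albumin promoter, which is active in hepatocytes. The deletion was thus aimed at hepatocytes. Whether Kupffer cells, endothelial cells and the other non-hepatocyte cells of a BLKO liver kept the gene was not measured here. All mice were C57BL/6, 3 to 5 months old, fed freely and housed for 2 weeks in 12 h of light and 12 h of darkness; on the day of the experiment the lights stayed off, and exposure ended at CT8. The labels do not give the sex, and nothing states that the 3 libraries of a group came from separate cages. In the main test p-values therefore measure the spread between libraries of a group. That spread was estimated over all 36 libraries with counts, not over these 6 alone. Beside this pair stand BLKO and Alb livers kept in 21% oxygen at CT4, and BLKO and Alb livers after 6% oxygen from CT16, 3 libraries in each group.

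Each library is named by its replicate letter, and values are given in the order A, B, C. Levels are in CPM, the read count of a gene scaled to a common library size. They compare 1 gene across libraries and not different genes, since they are not divided by gene length. BLKO libraries held 2542856, 2524026 and 3091582 counts, against 2277290, 2656153 and 4120829 counts in Alb libraries, and all 36 libraries held 1717589 to 5196957. A gene is called when its adjusted p from edgeR's quasi-likelihood test is under 0.05, and a log2 fold change ± SE is BLKO over Alb, with 3 libraries in each group. Where oxygen and time are not given, the livers are those of CT4 under 6% oxygen. The 13 measured hepatocyte markers summed to 91208 to 98694 CPM in BLKO livers and 100539 to 114251 CPM in Alb livers, with none of them at 0. Albumin, an abundant one, was the only marker called and was lower in BLKO livers. By sign, 9 of the 13 had a positive log2 fold change and 4 a negative one (median 0.08). In acute phase genes Alb A stood far above Alb B and Alb C at each oxygen level; beside each call that was lost without it stand the adjusted p and, where the log2 fold change moved by more than 1.5 times, that value too.

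BMAL1, whose gene symbol is Arntl, pairs with CLOCK or NPAS2, binds E-box sequences and switches on the Per and Cry genes, Nr1d1 and Nr1d2 (REV-ERB alpha and beta), Dbp and Ciart. PER and CRY proteins block BMAL1, while REV-ERB proteins repress Arntl, Npas2, Cry1 and Nfil3, and ROR proteins activate the same sites. In the liver this loop times the handling of glucose, fat, bile acids and drugs. Low oxygen stabilises HIF-1 alpha and HIF-2 alpha, which pair with ARNT, a protein of the same family as BMAL1, and switch on glycolysis and other adaptive genes.

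Arntl itself (chromosome 7, 113207465 to 113314126 of GRCm38) did not separate the groups. It was at 10.2, 10.8 and 13.4 CPM in BLKO livers, against 13.2, 4.94 and 6.71 CPM in Alb livers. Alb B and Alb C lay below all BLKO libraries and Alb A within their range, and the difference of 0.54 ± 0.30 (adjusted p = 0.374) was not called. Counts are given for the whole gene, so that exons outside the deletion contribute and this level checks no label. Reads of the antisense gene Gm45355 cannot be told apart from it, because the use of strand in counting is not stated.

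The clock genes downstream of BMAL1 separated the groups in both directions. BMAL1-driven clock genes numbered 12 among those tested; 3 of them fell and 1 rose, at a median log2 fold change of -0.61, where 2.82% of all tested genes fell and 2.18% rose. The median over all tested genes was -0.0041. The median of the 12 was -0.33 without BLKO C and -0.35 without Alb C, while the counts stayed at 3 and 1 in each case. Cry1, which rose, is also repressed by REV-ERB, as is Npas2, which rose too. The calls of Nr1d1, Ciart, Dbp, Cry1 and Npas2 were kept under every alternative, including the omission of any 1 library.

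Nr1d1 (chromosome 11, 98767932 to 98775333), the repressor REV-ERB alpha, was at 9.05, 18.8 and 15.8 CPM in BLKO livers, against 127, 197 and 120.1 CPM in Alb livers. Every BLKO library was far below every Alb library, with a log2 fold change of -3.33 ± 0.31 (adjusted p = 6.3e-09). Exons of Thra overlap it on the other strand. Ciart (chromosome 3, 95878503 to 95882251), a repressor of the BMAL1 and CLOCK pair, was at 5.51, 6.92 and 3.65 CPM in BLKO livers, against 36.8, 66.2 and 71.8 CPM in Alb livers. All BLKO libraries were below all Alb libraries, and the log2 fold change was -3.48 ± 0.35 (adjusted p = 3.22e-08). Dbp (chromosome 7, 45705088 to 45710203), a transcription factor that passes the rhythm on to liver enzymes, was at 15.7, 11.1 and 9.74 CPM in BLKO livers, against 28.3, 165 and 96.2 CPM in Alb livers. Alb A was the lowest control and lay nearer to the BLKO libraries than to the other controls, yet still above all 3 of them. The log2 fold change of Dbp was -3.01 ± 0.42 (adjusted p = 1.14e-05), and the gene overlaps Sphk2 on the other strand.

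Cry1 (chromosome 10, 85131700 to 85185064), a clock repressor that BMAL1 activates and REV-ERB restrains, moved the other way. It was at 45.6, 63.8 and 62.4 CPM in BLKO livers, against 11.3, 7.99 and 8.28 CPM in Alb livers. The lowest BLKO library was well above the highest Alb library, and the log2 fold change was 2.67 ± 0.22 (adjusted p = 5.33e-10). Npas2 (chromosome 1, 39193731 to 39363236), the partner of BMAL1 that can replace CLOCK, was at 22.4, 15.0 and 23.1 CPM in BLKO livers, against 3.30, 1.14 and 1.79 CPM in Alb livers. It was near the lower limit of detection in Alb livers and clearly counted in all BLKO livers, with a log2 fold change of 3.34 ± 0.42 (adjusted p = 2.2e-06).

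The promoters of 3 of these genes are shown because the genes differ in direction and the site that BMAL1 binds, the E-box CACGTG, can be looked for in each. The runs are the 250 bases before the annotated start in RefSeq (GRCm38.p6), 5′ to 3′ on the gene's strand, with each CACGTG in capitals; the motif reads the same on both strands.
Ciart, chr3:95882229-95882478, minus strand: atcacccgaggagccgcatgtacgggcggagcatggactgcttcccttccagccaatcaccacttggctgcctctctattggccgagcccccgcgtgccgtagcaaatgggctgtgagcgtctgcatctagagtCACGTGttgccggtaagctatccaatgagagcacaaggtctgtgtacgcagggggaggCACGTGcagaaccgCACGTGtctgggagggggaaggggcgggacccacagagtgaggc
Cry1, chr10:85185055-85185304, minus strand: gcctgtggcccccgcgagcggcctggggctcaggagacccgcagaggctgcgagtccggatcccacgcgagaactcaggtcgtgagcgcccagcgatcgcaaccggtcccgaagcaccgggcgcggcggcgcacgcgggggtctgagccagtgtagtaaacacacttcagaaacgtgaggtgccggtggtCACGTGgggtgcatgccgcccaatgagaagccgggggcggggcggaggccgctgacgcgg
Dbp, chr7:45704997-45705246, plus strand: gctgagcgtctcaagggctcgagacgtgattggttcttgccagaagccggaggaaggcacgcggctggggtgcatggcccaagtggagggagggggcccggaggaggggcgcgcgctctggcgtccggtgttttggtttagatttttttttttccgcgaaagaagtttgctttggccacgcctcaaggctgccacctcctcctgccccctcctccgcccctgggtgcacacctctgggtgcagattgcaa
Ciart, which fell, held 3 E-boxes, Cry1, which rose, held 1, and Dbp, which fell, held none in this window, as did Nr1d1 and Npas2. The E-box stood in 4 of the 10 BMAL1-driven clock genes with an entry and in 10.5% of the 7650 tested genes with one. Of the genes with an entry, it stood in 15 of 160 called higher (9.38%) and 20 of 208 called lower (9.62%). AGGTCA, which is only a part of the REV-ERB and ROR site, was searched on both strands. It stood in 19 of the 160 called higher (11.9%) and 48 of the 208 called lower (23.1%), against 13.6% of the tested genes with an entry. The D-box TTATGTAA, the site of DBP and its relatives, was also searched on both strands. It was in only 2 of the 160 (1.25%) and 4 of the 208 (1.92%), against 0.601% of the tested genes with an entry.

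The other clock genes did not pass the test. Per1, an immediate repressor of the loop, was at 54.3, 46.9 and 32.3 CPM in BLKO livers, against 62.7, 74.9 and 71.4 CPM in Alb livers. Its groups did not overlap, but the difference of -0.66 ± 0.22 (adjusted p = 0.0887) was not called. Nr1d2, the second REV-ERB gene, was at 0.393, 3.08 and 2.13 CPM in BLKO livers, against 6.60, 3.04 and 6.26 CPM in Alb livers. The BLKO values were mostly lower and overlapped the Alb values, and the difference was -1.48 ± 0.52 (adjusted p = 0.102). Per2, Per3, Cry2, Tef, Hlf and Bhlhe40 had log2 fold changes between -0.90 for Per3 and 0.18 for Cry2. Nfil3, the repressor that opposes DBP, stood at 0.05, and Rora at -0.16. Clock itself was too low to be tested, at 0.787, 2.31 and 2.43 CPM in BLKO livers, against 0.471, 2.66 and 1.57 CPM in Alb livers.

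**Figure D1:**
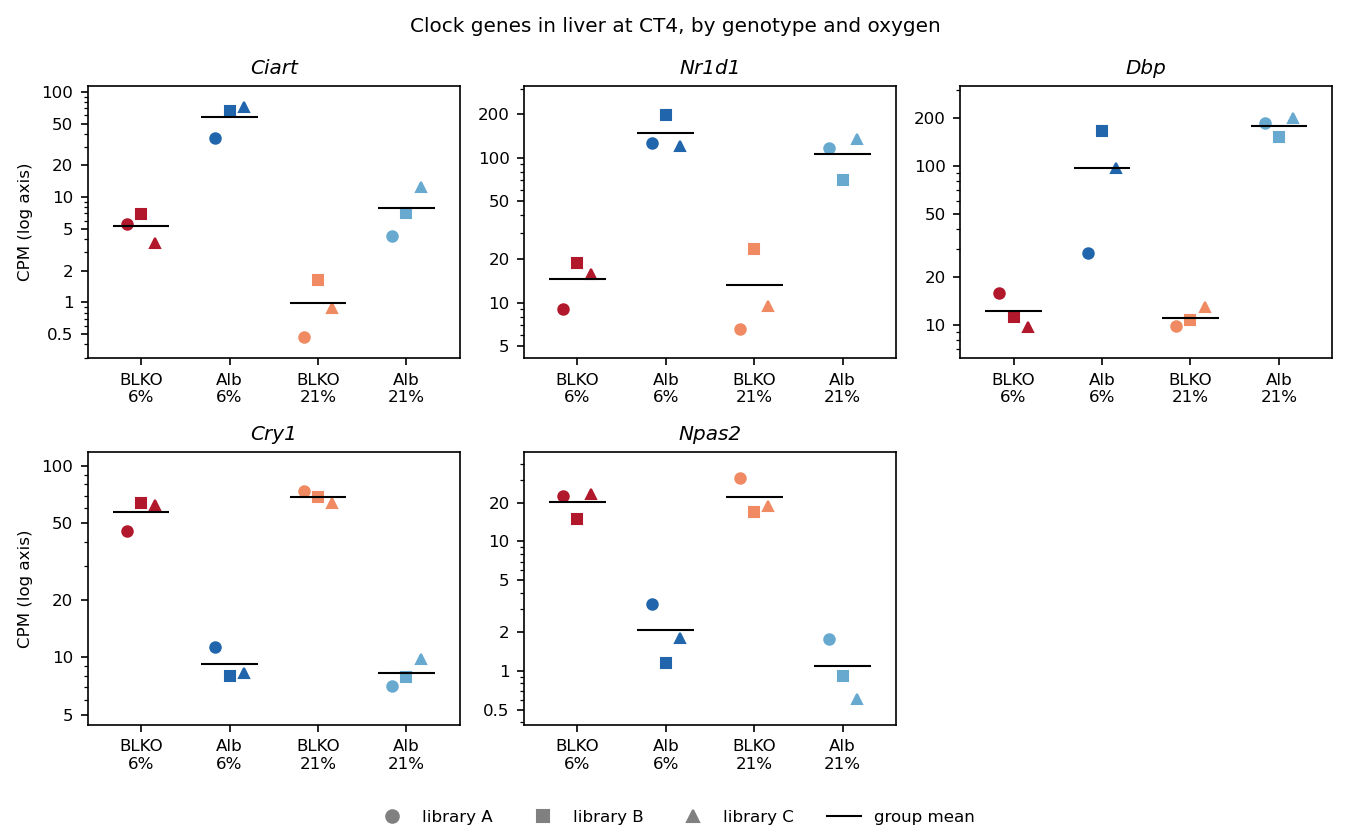
Levels of 5 clock genes in CPM on a log axis, in the 3 libraries (A circle, B square, C triangle) of BLKO and Alb livers at CT4 under 6% and under 21% oxygen; black lines are group means. Ciart, Nr1d1 and Dbp lie lower, and Cry1 and Npas2 higher, in all BLKO libraries than in the Alb libraries of the same oxygen level.

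The same 5 genes were called at 21% oxygen, in libraries not shared with the 6% pair. There, 7.44% of all tested genes were called, 3.78% higher and 3.67% lower in BLKO livers. In the 21% livers Nr1d1 was at 6.54, 23.3 and 9.54 CPM in BLKO livers, against 116, 70.1 and 134 CPM in Alb livers. For Cry1 the 21% values were 74.3, 69.1 and 63.8 CPM in BLKO livers, against 7.06, 7.92 and 9.75 CPM in Alb livers. Ciart was lower in every library at 21% oxygen than in any of the same genotype under 6% oxygen, at 0.467, 1.63 and 0.895 CPM in BLKO livers, against 4.24, 7.01 and 12.5 CPM in Alb livers. The log2 fold changes at 21% oxygen were -3.02 for Nr1d1, 3.05 for Cry1, -2.95 for Ciart, -3.99 for Dbp and 4.31 for Npas2. Nr1d2, Per3 and Nfil3 were called at 21% oxygen under every alternative but not under 6% oxygen. Hlf and Cry2 were also called at 21% oxygen, where Hlf was lost without BLKO C (adjusted p = 0.0778) and Cry2 without any 1 of the 6 libraries (adjusted p = 0.0531 to 0.173) and when only the 2 groups were fitted (0.0584). For none of these 5 did the change of the difference with oxygen pass the test (adjusted p between 0.13 for Nfil3 and 0.666 for Cry2).

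Over all genes, 474 of 9483 (5.00%) were called, 207 (2.18%) higher and 267 (2.82%) lower in BLKO livers. The median log2 fold change was 0.85 among the higher and -1.07 among the lower genes, and 227 of the 474 differed by 1 or more, 84 higher and 143 lower. The groups did not overlap for 454 of the called genes, while 19.9% of all tested genes showed no overlap. The count fell to 279 without BLKO A, 286 without BLKO B, 304 without BLKO C and 305 without Alb B, and it was 349 without Alb A and 371 without Alb C.

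About as many of these genes were shared with the same comparison at 21% oxygen as were not. Of the 474 genes, 224 were called in the same direction at 21% oxygen (114 higher, 110 lower), which is 47.3% of the 474 and 31.7% of the 706 called at 21% oxygen, and 2 (Cfap20, and Atg13, which is named here after its values were seen) were called in opposite directions. The call of Atg13 under 6% oxygen, at a log2 fold change of -0.41 (adjusted p = 0.0459), was lost without BLKO A (adjusted p = 0.153), without BLKO B (0.0712), without BLKO C (0.137), without Alb A (0.136), without Alb B (0.278), with RLE scaling (0.0519), without the low-count filter (0.0669), with a replicate block (0.0516), when only the 2 groups were fitted (0.245) and by DESeq2 (0.0987). The count at 21% oxygen fell to 424 without BLKO A, 443 without Alb B and 466 without Alb C. With 6% oxygen from CT16, where 896 genes (9.45%; 3.90% higher and 5.55% lower) were called, 252 were shared in direction, 53.2% of the 474 and 28.1% of the 896, and 13 were opposite. In all 3 comparisons 164 genes were called in 1 direction. The sign at 21% oxygen was the same for 89.9% of the 474 genes, against 60.0% of all tested genes, and at CT16 for 87.6%, against 59.6%.

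**Figure D2:**
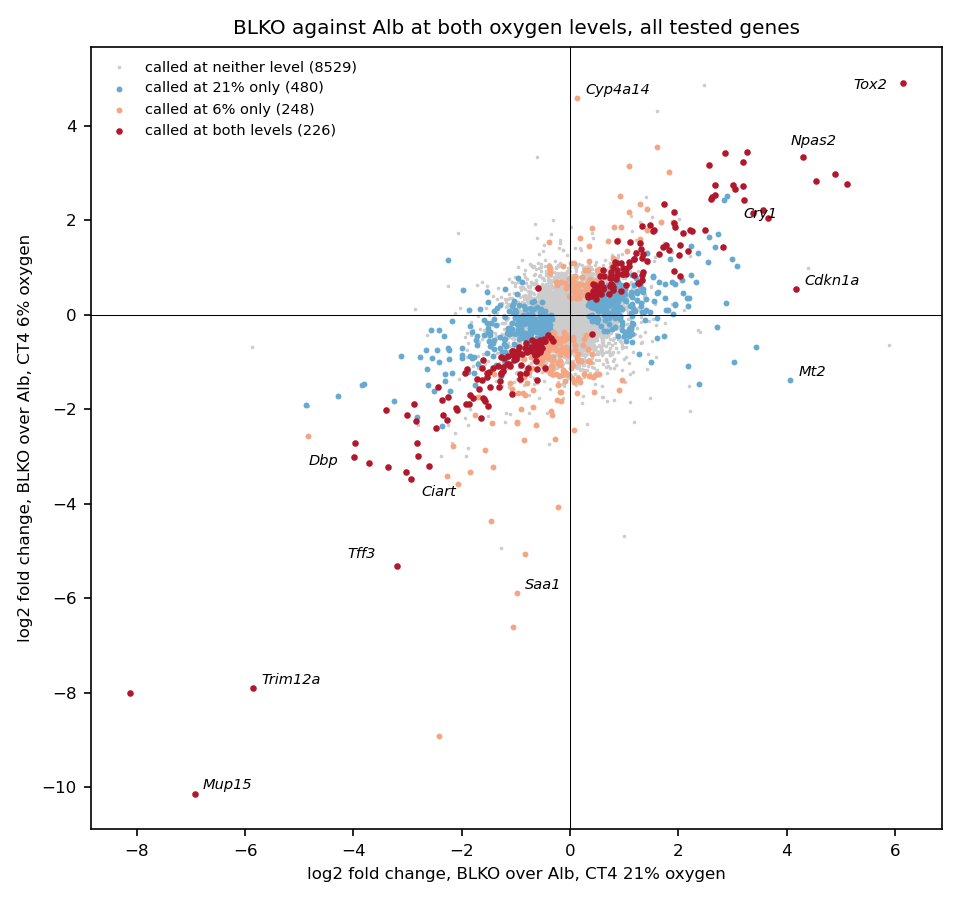
Log2 fold change of BLKO over Alb at CT4 for each of 9483 tested genes, under 6% oxygen (vertical axis) against 21% oxygen (horizontal axis); each point is a gene, coloured by where it was called. Of the points 226 were called at both levels, 248 under 6% oxygen only and 480 at 21% oxygen only.

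The genes that rose most, cytochromes P450 aside, were called in all 3 comparisons. Tox2 (chromosome 2, 163203125 to 163324170), a nuclear HMG-box protein, was at 23.2, 21.9 and 25.6 CPM in BLKO livers, against 0, 0.38 and 1.34 CPM in Alb livers. It was almost undetected in Alb livers and even across BLKO livers, with a log2 fold change of 4.92 ± 0.45 (adjusted p = 5.59e-09). The values for Tox2 were 6.15 ± 0.57 (adjusted p = 3.57e-09) at 21% oxygen and 4.98 ± 0.49 (adjusted p = 7.32e-09) at CT16, where the fitted value without Alb A was 8.59. Grk5, a kinase of G protein-coupled receptors, was at 46.0, 34.2 and 28.3 CPM in BLKO livers, against 2.36, 3.04 and 5.14 CPM in Alb livers. The groups were far apart, at 3.23 ± 0.31 (adjusted p = 7.62e-09). Loxl4, a lysyl oxidase that crosslinks collagen, was at 30.7, 23.1 and 16.1 CPM in BLKO livers, against 3.77, 1.14 and 4.25 CPM in Alb livers. No Alb library reached the lowest BLKO library, and the log2 fold change was 2.83 ± 0.35 (adjusted p = 1.09e-06). Slc34a2, a phosphate transporter, rose by 2.99 ± 0.55 (adjusted p = 0.000607), and Mtnr1a, a melatonin receptor, by 3.16 ± 0.57 (adjusted p = 0.00047). The unnamed transcript 3930402G23Rik was at 9.83, 7.69 and 3.35 CPM in BLKO livers, against 1.41, 0 and 1.34 CPM in Alb livers. It also separated the groups completely, at 2.77 ± 0.57 (adjusted p = 0.00254). The calls of these 6 genes at 6% oxygen held under every alternative.

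Cytochromes P450 and a desaturase made up most of the other highest genes. Cyp2b10, the drug-metabolising enzyme that the receptor CAR induces, was at 11.8, 10.8 and 32.6 CPM in BLKO livers, against 0.471, 0.761 and 2.91 CPM in Alb livers. BLKO C was the highest library, the groups did not overlap, and the log2 fold change was 3.45 ± 0.65 (adjusted p = 0.000885). Cyp2c55, an enzyme of arachidonic acid metabolism, was at 67.6, 62.3 and 146 CPM in BLKO livers, against 10.4, 3.04 and 11.6 CPM in Alb livers. BLKO C again stood highest, with a log2 fold change of 3.42 ± 0.41 (adjusted p = 9.35e-07). Scd2, a stearoyl-CoA desaturase, was at 21.2, 28.4 and 18.3 CPM in BLKO livers, against 0.943, 2.28 and 5.37 CPM in Alb livers. All BLKO libraries exceeded all Alb libraries, at 2.76 ± 0.45 (adjusted p = 0.000161). The last 2 of the 12 highest genes, Cyp4a14 and Cyp4a31, rested on BLKO C and are described with the fat-burning genes.

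Several of the genes that fell most were not counted at all in BLKO livers. Trim12a (chromosome 7, 104299894 to 104315466), a rodent protein of the TRIM family, was at 0, 0 and 0 CPM in BLKO livers, against 9.43, 6.84 and 10.96 CPM in Alb livers. A count of 3 over the BLKO group would be 0.356 CPM, and against this floor Trim12a was at least 26.5-fold lower in BLKO livers (adjusted p = 1.09e-06). Prtn3, known as a protease of neutrophil granules, was at 0, 0 and 0 CPM in BLKO livers, against 25.5, 7.22 and 23.0 CPM in Alb livers. It was at least 53.6-fold lower in BLKO livers by the same floor (adjusted p = 0.00612). The 5 measured neutrophil markers summed to 4.87 to 6.69 CPM in BLKO livers and 3.30 to 9.89 CPM in Alb livers, with none at 0 in all libraries of a group, and their part in the Prtn3 result was not tested. Mup15, a major urinary protein whose reads may be shared with its many paralogs, was at 0, 0 and 0 CPM in BLKO livers, against 116, 12.5 and 10.7 CPM in Alb livers. It was at least 99.4-fold lower, but Alb A alone supplied most of its counts, and the call was lost without Alb A (adjusted p = 0.116). Floors cover counting error only.

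Tff3, a secreted trefoil peptide, was at 4.33, 5.00 and 2.43 CPM in BLKO livers, against 69.3, 79.5 and 306 CPM in Alb livers. Alb C was the highest library and even the lowest Alb library was far above the BLKO libraries, with a log2 fold change of -5.32 ± 0.94 (adjusted p = 0.000405). Slc16a5, a monocarboxylate transporter, was at 0.393, 0.769 and 0.913 CPM in BLKO livers, against 6.60, 9.89 and 9.62 CPM in Alb livers. Its groups did not overlap, and the log2 fold change was -3.57 ± 0.75 (adjusted p = 0.0029).

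Liver enzymes and transporters known to cycle with the clock went both ways. Of the 18 tested, 3 rose and 4 fell, and the log2 fold changes had a median -0.17, and -0.30 to -0.11 with 1 library left out. The number that fell was 2 without BLKO A, BLKO B, BLKO C or Alb C. Among them Insig2, which rose by 0.90 ± 0.20 (adjusted p = 0.00427), and Por, at -0.76 ± 0.17 (adjusted p = 0.00612), are named after their values were seen; the first restrains sterol synthesis and the second passes electrons to cytochromes P450. The call of Insig2 held under every alternative, and that of Por was lost without BLKO A (adjusted p = 0.0528) and without BLKO B (0.0534). Elovl3, which elongates fatty acids, was at 1504, 1577 and 1413 CPM in BLKO livers, against 508, 481 and 357 CPM in Alb livers. Every BLKO library was well above every Alb library, at 1.74 ± 0.21 (adjusted p = 9.35e-07). Ppard, a nuclear receptor of fat metabolism, was at 59.0, 64.6 and 57.8 CPM in BLKO livers, against 20.7, 14.8 and 16.8 CPM in Alb livers. The groups were far apart and tight, at 1.80 ± 0.24 (adjusted p = 3.79e-06). Gys2, the glycogen synthase of liver, was at 133, 142 and 145 CPM in BLKO livers, against 172, 314 and 225 CPM in Alb livers. BLKO livers were lower throughout, at -0.76 ± 0.15 (adjusted p = 0.0013), and the call was lost when only the 2 groups were fitted (adjusted p = 0.0521). Noct, a circadian phosphatase once described as a deadenylase, was at 13.8, 23.8 and 11.9 CPM in BLKO livers, against 29.2, 35.0 and 48.5 CPM in Alb livers. It fell by 1.23 ± 0.31 on the log2 scale (adjusted p = 0.0164), and its call was lost without BLKO A (adjusted p = 0.0808), without BLKO C (0.112) and without Alb C (0.116). Upp2, a uridine phosphorylase, was at 93.2, 73.8 and 83.7 CPM in BLKO livers, against 117, 169 and 195 CPM in Alb livers. No BLKO library reached the lowest Alb library, and the difference of -0.95 ± 0.26 (adjusted p = 0.0242) lost its call without BLKO B (adjusted p = 0.108), without BLKO C (0.0736), without Alb B (0.0711) and without Alb C (0.117). Alas1, the first enzyme of haem synthesis, and Cyp8b1, which sets the kind of bile acid made, had log2 fold changes of -0.69 and 0.01 and were not called.

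No gene of the oxygen-sensing system passed the test under 6% oxygen. None of the 8 tested HIF subunits and oxygen sensors was called by edgeR or by DESeq2, and 1 had an unadjusted p under 0.05. Hif1a was at 6.29, 9.61 and 6.39 CPM in BLKO livers, against 1.89, 3.04 and 5.37 CPM in Alb livers. The BLKO values lay above the Alb values, but at these low counts the difference of 0.97 ± 0.48 (adjusted p = 0.313) was not called. Epas1, which encodes HIF-2 alpha, was at 125, 126 and 135 CPM in BLKO livers, against 178, 160.1 and 164 CPM in Alb livers. BLKO livers were lower in all 3 libraries, and the difference of -0.38 ± 0.13 (adjusted p = 0.0856) missed the threshold. Arnt, the shared partner, was at 27.1, 21.1 and 19.8 CPM in BLKO livers, against 22.2, 27.8 and 22.1 CPM in Alb livers, with overlapping groups and a difference of -0.09 ± 0.19 (adjusted p = 0.883).

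Of 35 tested HIF targets outside glycolysis, 2 passed the test, and 24 had a negative fold change (median -0.16, and -0.29 to -0.03 with 1 library left out). One of the called genes was Ndrg1, which rose, a stress-induced gene that HIF activates, at 72.4, 103 and 99.2 CPM in BLKO livers, against 21.7, 19.4 and 20.4 CPM in Alb livers. Its lowest BLKO library was far above the highest Alb library, and the log2 fold change was 2.16 ± 0.20 (adjusted p = 6.15e-09). Ndrg1 was also higher in BLKO livers at 21% oxygen, at 74.3, 56.0 and 58.8 CPM in BLKO livers, against 7.06, 5.79 and 5.18 CPM in Alb livers. The difference there was 3.39 ± 0.24 (adjusted p = 7.98e-12). Vegfa, the vascular growth factor, was at 157, 131 and 101 CPM in BLKO livers, against 138, 157 and 177 CPM in Alb livers, with a difference of -0.29 ± 0.21 (adjusted p = 0.537). Igfbp1, a secreted IGF-binding protein induced by low oxygen, was at 2709, 2282 and 1769 CPM in BLKO livers, against 2014, 1622 and 2241 CPM in Alb livers. Both genotypes overlapped at this high level, and the difference was 0.20 ± 0.33 (adjusted p = 0.826). At 21% oxygen Igfbp1 was much lower and the genotypes stood apart, at 519, 251 and 309 CPM in BLKO livers, against 150.4, 70.1 and 62.2 CPM in Alb livers, a difference of 1.93 ± 0.35 (adjusted p = 0.000295). The change of that difference with oxygen, -1.73 ± 0.47 (adjusted p = 0.123), did not pass the test.

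Among 21 genes of glycolysis and glucose uptake, 3 fell and none rose, and 17 had a negative fold change (median -0.21, and -0.25 to -0.18 with 1 library left out). None fell without BLKO B or Alb B, and 1 fell without BLKO A, Alb A or Alb C. Pklr, the liver pyruvate kinase, was at 94.4, 86.1 and 86.7 CPM in BLKO livers, against 126, 194 and 216 CPM in Alb livers. Every BLKO library was below every Alb library, at -1.01 ± 0.25 (adjusted p = 0.0134). The call of Pklr was lost without BLKO B (adjusted p = 0.0564), without BLKO C (0.0545), without Alb B (0.0529) and without Alb C (0.0749). Eno1, an enolase, was at 59.8, 48.4 and 85.8 CPM in BLKO livers, against 128, 155 and 86.1 CPM in Alb livers. BLKO C lay just under Alb C, so the groups barely parted, at -0.91 ± 0.27 (adjusted p = 0.0425), and the call was lost without BLKO A (adjusted p = 0.136), without BLKO B (0.21), without Alb A (0.104), without Alb B (0.224) and when only the 2 groups were fitted (0.0595). Gpi1, the glucose phosphate isomerase, fell by 0.55 ± 0.16 on the log2 scale (adjusted p = 0.0402), lost without any 1 of the 6 libraries (adjusted p = 0.0604 to 0.125). Ldha, an abundant member not called, stood at -0.21. At CT16 under 6% oxygen Pklr differed by -1.78 ± 0.25 (adjusted p = 5.16e-06) and Gpi1 by -0.99 ± 0.16 (adjusted p = 5.22e-05).

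Among the 26 tested genes of glucose production and amino acid breakdown 2 were called, of which Sds fell, beside 5.00% of all tested genes. Sds, serine dehydratase, was at 765, 578 and 659 CPM in BLKO livers, against 1218, 1569 and 982 CPM in Alb livers. Its groups did not overlap, at -0.91 ± 0.21 (adjusted p = 0.00697), and the call was lost without BLKO B (adjusted p = 0.056) and without Alb B (0.0726). Pck1, the gate of gluconeogenesis, was at 2547, 2698 and 2818 CPM in BLKO livers, against 2147, 2812 and 2764 CPM in Alb livers, with overlapping groups and a difference of 0.06 ± 0.17 (adjusted p = 0.91). Of the 8 urea cycle genes only Asl, argininosuccinate lyase, was called, at -0.53 ± 0.15 (adjusted p = 0.0297), and this was lost without BLKO A (adjusted p = 0.0603), without BLKO B (0.122), without BLKO C (0.0817), without Alb A (0.0692), without Alb B (0.219) and when only the 2 groups were fitted (0.0785).

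Fat synthesis was lower in BLKO livers in 18 of 21 tested genes by sign (median -0.30, and -0.47 to -0.26 with 1 library left out), of which Thrsp, Fasn, Pklr and Srebf1 fell, while Scd2 rose. Srebf1, the lipogenic factor SREBP1, is named after its values were seen and differed by -0.83 ± 0.22 (adjusted p = 0.0207), lost without BLKO B (adjusted p = 0.131), without BLKO C (0.135), without Alb B (0.0715), without Alb C (0.0795) and when only the 2 groups were fitted (0.0711). Thrsp, a regulator of lipid synthesis, was at 506, 486 and 388 CPM in BLKO livers, against 1467, 1228 and 1252 CPM in Alb livers. Every Alb library was far above the highest BLKO library, with a log2 fold change of -1.52 ± 0.23 (adjusted p = 3.96e-05) that held under every alternative. Fasn, the fatty acid synthase, was at 9.44, 13.5 and 11.6 CPM in BLKO livers, against 25.0, 16.0 and 31.3 CPM in Alb livers. The difference of -1.09 ± 0.30 (adjusted p = 0.0297) lost its call without BLKO A (adjusted p = 0.126), without BLKO B (0.0534), without BLKO C (0.0917), without Alb A (0.0663) and without Alb C (0.206). The count of fallen genes in this list was 1 without Alb C, without BLKO B or without BLKO C, and 2 without Alb B. Scd1, the main desaturase of liver, was at 1043, 1415 and 1724 CPM in BLKO livers, against 2090.4, 2077 and 4248 CPM in Alb livers. All BLKO libraries were below all Alb libraries, and the difference of -1.01 ± 0.34 (adjusted p = 0.0856) was not called. At 21% oxygen 8 genes of the list fell, and at CT16 under 6% oxygen 13 fell, while Scd2 rose in both. These counts were 3 without BLKO A and 4 without BLKO C or Alb C at 21% oxygen, and 8 without Alb A at CT16.

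Of 35 genes of fatty acid oxidation and targets of PPARA, the fasting receptor, 4 rose and 3 fell (median 0.08, and -0.09 to 0.17 with 1 library left out), but the calls of the 4 that rose were lost without BLKO C and without Alb C. Of the 3 that fell, Acaa1a at -0.84 ± 0.13 (adjusted p = 4.67e-05) and Fabp1 at -0.55 ± 0.14 (adjusted p = 0.0194) are named after their values were seen; Acaa1a is a thiolase of peroxisomes and Fabp1 carries fatty acids. Acaa1a held under every alternative and Fabp1 was lost without BLKO A (adjusted p = 0.0843), without BLKO B (0.0772), without Alb B (0.177) and when only the 2 groups were fitted (0.053). Cyp4a14, a fatty acid hydroxylase that may share reads with its paralogs, was at 19.3, 30.4 and 617 CPM in BLKO livers, against 16.0, 3.04 and 9.62 CPM in Alb livers. BLKO C was far above the other BLKO libraries, and BLKO A was close to Alb A. The log2 fold change of Cyp4a14 was 4.58 ± 1.18 (adjusted p = 0.0175), lost without BLKO C (adjusted p = 0.643, log2 fold change 1.41), without Alb B (0.0878), without Alb C (0.0698) and when only the 2 groups were fitted (0.052). Fgf21, a fasting hormone, was at 0.787, 8.46 and 25.3 CPM in BLKO livers, against 1.41, 3.04 and 1.79 CPM in Alb livers, again highest in BLKO C and with BLKO A below every Alb library. It rose by 2.52 ± 0.70 (adjusted p = 0.0298), lost without BLKO C (adjusted p = 0.552, log2 fold change 1.15), without Alb A (0.0894), without Alb B (0.0582), without Alb C (0.126) and when only the 2 groups were fitted (0.139). Pdk4, which restrains the oxidation of glucose, was at 20.8, 28.8 and 47.8 CPM in BLKO livers, against 8.96, 7.61 and 11.2 CPM in Alb livers. Its groups did not overlap, and the difference of 1.79 ± 0.53 (adjusted p = 0.0437) was lost without BLKO B (adjusted p = 0.0709), without BLKO C (0.245), without Alb A (0.107), without Alb B (0.149) and without Alb C (0.0871). Cyp4a31 rose by 3.56 ± 0.79 (adjusted p = 0.00504), lost without BLKO C (adjusted p = 0.263, log2 fold change 1.91) and without Alb C (0.0546). Without BLKO C none of the 35 genes rose and 4 fell, and 1 rose without Alb B and 2 without Alb A.

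Cholesterol genes were close to balance, with 1 of 24 higher and 1 lower. Tm7sf2, a sterol reductase, rose by 0.43 ± 0.13 (adjusted p = 0.0415), lost without BLKO A (adjusted p = 0.0896), without BLKO B (0.142), without BLKO C (0.0968), without Alb A (0.234), without Alb C (0.0622), without the low-count filter (0.0533) and when only the 2 groups were fitted (0.168). Insig1, which holds back sterol synthesis, was at 154, 160.3 and 137 CPM in BLKO livers, against 350.3, 204 and 169 CPM in Alb livers, with Alb A the highest library, and its difference of -0.68 ± 0.18 (adjusted p = 0.0233) was lost without BLKO A (adjusted p = 0.061), without BLKO C (0.104), without Alb A (0.355, log2 fold change -0.31) and when only the 2 groups were fitted (0.152).

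Of 22 genes of bile acid synthesis and transport 3 rose, none fell and 16 had a positive fold change (median 0.25, and 0.23 to 0.27 with 1 library left out). Without BLKO B 1 rose. Cyp7b1, the oxysterol hydroxylase of the alternative bile acid pathway, was at 552, 664 and 444 CPM in BLKO livers, against 254, 98.5 and 98.6 CPM in Alb livers. The lowest BLKO library was well above the highest Alb library, Alb A, at 1.89 ± 0.34 (adjusted p = 0.000503). Hsd3b7, a later step of the same synthesis, was at 1027, 1081 and 825 CPM in BLKO livers, against 647, 623 and 691 CPM in Alb livers. BLKO livers were higher throughout, at 0.58 ± 0.13 (adjusted p = 0.00552), and the call was lost without BLKO B (adjusted p = 0.0504). Abcg8, a subunit of the sterol exporter of bile, was at 171, 157 and 176 CPM in BLKO livers, against 69.3, 121 and 132 CPM in Alb livers. The groups did not overlap, but the difference of 0.64 ± 0.18 (adjusted p = 0.0297) was lost without BLKO A (adjusted p = 0.0882), without BLKO B (0.052), without BLKO C (0.102), without Alb A (0.207, log2 fold change 0.42) and when only the 2 groups were fitted (0.135).

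Xenobiotic metabolism was the function list with the most genes that rose: 9 of 35 rose and 4 fell (median 0.18), and 7 to 9 rose under the alternatives. The number that fell was 1 without BLKO A and 2 without BLKO B, and the median was 0.00068 without BLKO C and 0.04 without Alb C. The 4 that fell were Ces1d, Sult1a1, Por and Gstt1, at log2 fold changes of -1.25, -1.07, -0.76 and -0.58, named after their values were seen. The call of Ces1d held under every alternative, while that of Sult1a1 was lost without BLKO A (adjusted p = 0.0593) and that of Gstt1 without BLKO A (adjusted p = 0.157), without BLKO B (0.149), without Alb B (0.161) and when only the 2 groups were fitted (0.104). Apart from Cyp2b10 and Cyp2c55, the largest rises were those of Gstm3 and Cyp2c37. Gstm3, a glutathione transferase, was at 344, 409 and 461 CPM in BLKO livers, against 75.4, 45.6 and 98.0 CPM in Alb livers. All BLKO libraries were several times the Alb libraries, at 2.46 ± 0.33 (adjusted p = 4.88e-06). Cyp2c37, a cytochrome P450 of the Cyp2c cluster, was at 399, 482 and 409 CPM in BLKO livers, against 163, 156 and 113 CPM in Alb livers. The groups were far apart, at 1.59 ± 0.32 (adjusted p = 0.00177). Both families hold close paralogs whose reads may be split. Cyp2e1 and Cyp1a2, the most abundant members not called, stood at 0.28 and 0.32.

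Sex-biased liver genes, which the pattern of growth hormone release sets, were tested in both lists. Of 19 tested male-biased genes 4 rose and none fell, and the log2 fold changes had a median -0.05, and -0.12 to 0.20 with 1 library left out. The number that rose was 2 without BLKO A, BLKO B, Alb B or Alb C. Of 7 female-biased genes 1 fell, and no test set the lists against each other. Of the 4, Elovl3 and Cyp7b1 are given above. Hsd3b5, a steroid dehydrogenase, was at 483, 435 and 348 CPM in BLKO livers, against 233, 254 and 224 CPM in Alb livers. All BLKO livers were above all Alb livers, and the difference of 0.83 ± 0.22 (adjusted p = 0.0224) was lost without BLKO A (adjusted p = 0.115), without BLKO B (0.07), without Alb A (0.0692), without Alb B (0.0501) and without Alb C (0.08). Cyp2d9, a steroid hydroxylase, rose by 0.56 ± 0.15 (adjusted p = 0.0253), lost without BLKO A (adjusted p = 0.131), without BLKO B (0.0568), without Alb B (0.0576), without Alb C (0.193, log2 fold change 0.37) and when only the 2 groups were fitted (0.115). Cyp17a1, a steroid hydroxylase of the female-biased list, was at 0.393, 2.31 and 1.83 CPM in BLKO livers, against 13.7, 6.84 and 10.7 CPM in Alb livers. BLKO livers were lower in all libraries, at -2.72 ± 0.73 (adjusted p = 0.0231), and the call was lost without BLKO A (adjusted p = 0.11), without BLKO B (0.0506), without BLKO C (0.0736), without Alb A (0.0692) and without Alb C (0.0632). Stat5b, which carries the growth hormone signal, was at 154, 126 and 132 CPM in BLKO livers, against 94.8, 88.6 and 89.7 CPM in Alb livers. It rose by 0.59 ± 0.15 (adjusted p = 0.0128), and this call was lost without BLKO A (adjusted p = 0.0875). No other of the 15 genes of the growth hormone and IGF axis was called, and the sex of the mice is not stated.

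**Figure D3:**
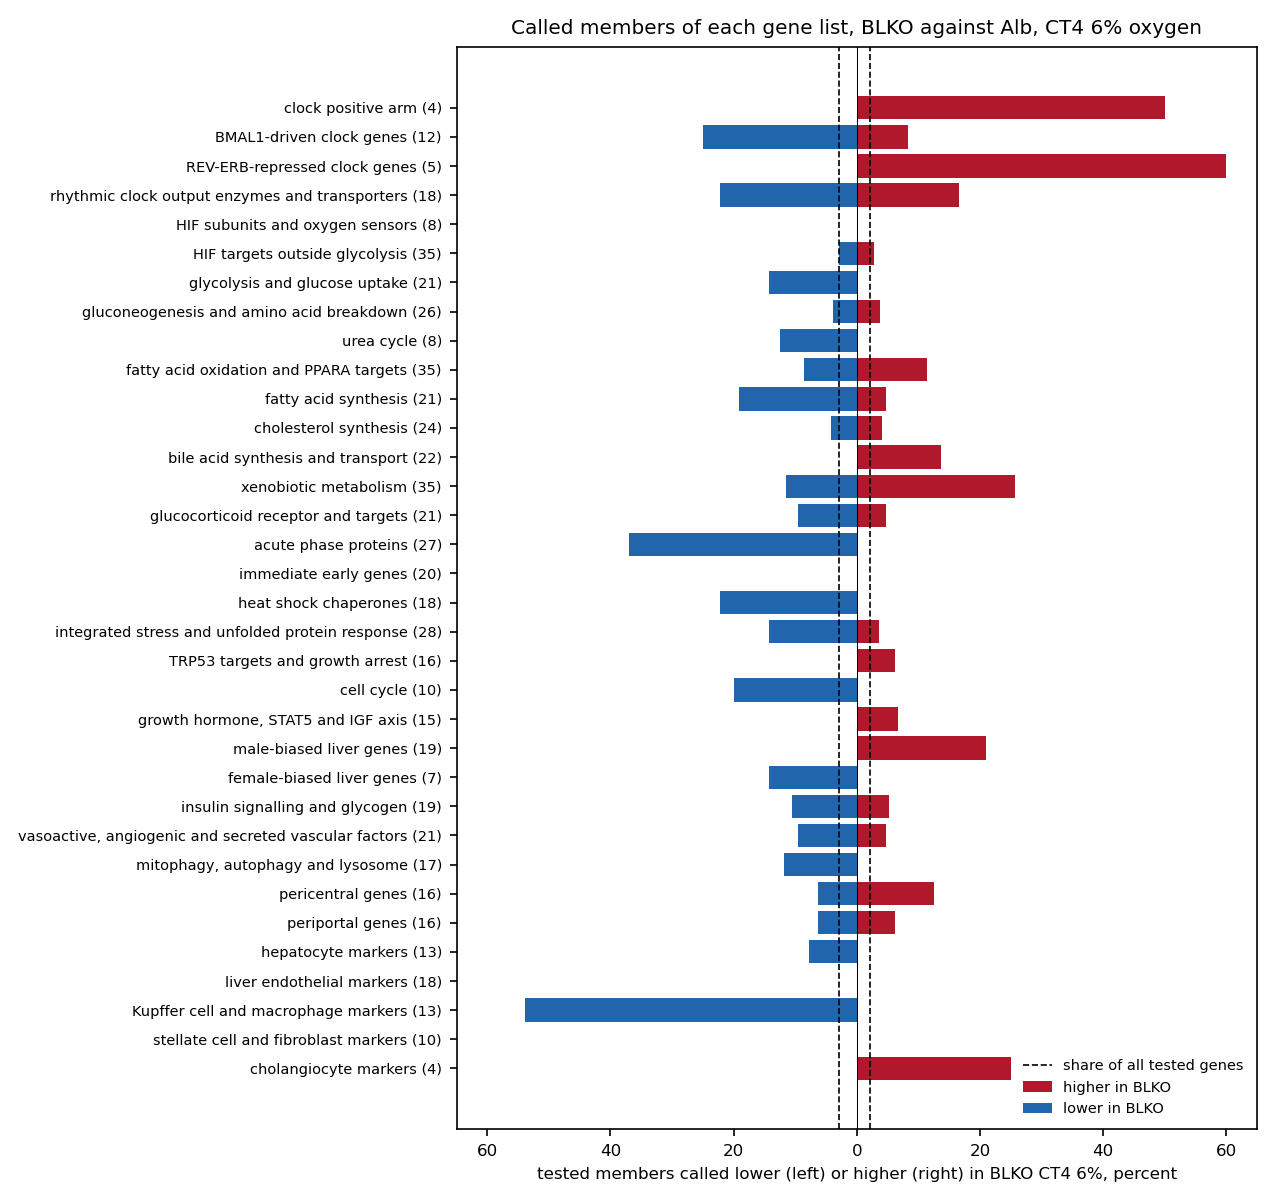
Share of the tested members, in percent, for each gene list with at least 4 tested members, that were called higher (right, red) or lower (left, blue) in BLKO than in Alb livers at CT4 under 6% oxygen; the number tested stands in parentheses and dashed lines mark the shares of all tested genes (2.18% higher, 2.82% lower). Among the lists drawn, REV-ERB-repressed clock genes and the clock positive arm reach farthest to the right, and Kupffer cell markers and acute phase proteins farthest to the left. BMAL1-driven clock genes and rhythmic clock output genes extend farther to the left than to the right.

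Acute phase proteins, which hepatocytes secrete in inflammation, were lower in BLKO livers by count: 10 of 27 tested genes fell, none rose and 22 had a negative fold change (median -0.63). The list summed to 33146, 31988 and 28703 CPM in BLKO livers, against 81565, 39810 and 35804 CPM in Alb livers. The BLKO libraries were alike, and Alb A was far above the other controls. Without Alb A only 1 of the 27 genes fell (median -0.40), and without Alb A of both oxygen levels, an alternative chosen after the data were seen, 2 fell. Between 3 and 4 fell without any 1 BLKO library.

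Orm3, an orosomucoid, was the 1 gene of the list whose call held under every alternative. It was at 1.57, 0.769 and 0.304 CPM in BLKO livers, against 29.2, 19.0 and 8.05 CPM in Alb livers. BLKO livers held almost none of it while every Alb liver did, at -4.36 ± 0.85 (adjusted p = 0.00126). Orm1, its abundant paralog, was at 939.95, 759 and 708 CPM in BLKO livers, against 4397, 1986 and 1365 CPM in Alb livers. The groups did not overlap, with Alb A the highest library, at -1.69 ± 0.36 (adjusted p = 0.00357), lost without Alb A (adjusted p = 0.0874, log2 fold change -1.06). Reads may be shared among the Orm genes. Saa1, a serum amyloid that may share reads with Saa2, was at 49.6, 67.7 and 70.6 CPM in BLKO livers, against 9999, 709.9 and 467 CPM in Alb livers. Alb A was far above Alb B and Alb C, which were still well above the BLKO libraries. The log2 fold change of Saa1 was -5.89 ± 1.47 (adjusted p = 0.014), with Alb A left out -3.23, and it was lost without BLKO A (adjusted p = 0.0744), without BLKO B (0.0651), without BLKO C (0.0633) and without Alb A (0.188, log2 fold change -3.23). Saa4, which is made constitutively, was at 104, 107 and 89.8 CPM in BLKO livers, against 558, 234 and 153 CPM in Alb livers. It fell by 1.64 ± 0.38 on the log2 scale (adjusted p = 0.00749), lost without Alb A (adjusted p = 0.168, log2 fold change -0.95). Lcn2, the iron-scavenging lipocalin, was at 3.15, 5.38 and 6.09 CPM in BLKO livers, against 416, 47.9 and 43.4 CPM in Alb livers. Its log2 fold change of -5.05 ± 1.34 (adjusted p = 0.0211) was lost without BLKO A (adjusted p = 0.0923), without BLKO B (0.0791), without BLKO C (0.0801) and without Alb A (0.229, log2 fold change -3.19). Hp, haptoglobin, was at 3198, 2841 and 2594 CPM in BLKO livers, against 10458, 5933 and 4459 CPM in Alb livers. Its difference of -1.27 ± 0.37 (adjusted p = 0.0385) was lost without BLKO A (adjusted p = 0.0852), without BLKO B (0.115), without BLKO C (0.132), without Alb A (0.259) and without Alb B (0.0558).

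At 21% oxygen the counts of the acute phase list ran the other way: 6 genes rose, only Socs3 fell and the median was 0.17. Without Alb A 10 rose at a median of 0.63, while 1 rose without BLKO B, Alb B or Alb C and 2 without BLKO A, and the median was -0.05 without Alb B. The call of Socs3 was lost without BLKO B (adjusted p = 0.0673), without BLKO C (0.081) and without Alb C (0.118). There Alb A again stood apart, as its list sum of 75898 CPM beside 26135 and 31463 CPM in Alb B and Alb C shows, while the BLKO livers held 53507, 52669 and 40021 CPM. Saa1 at 21% oxygen was at 2619.7, 2030.2 and 252 CPM in BLKO livers, against 9218, 178 and 323 CPM in Alb livers. The BLKO values spread over a wide range inside that of the Alb livers. At CT16 under 6% oxygen 6 genes of the list fell and none rose (median -0.55), and the number that fell was 11 without Alb A, 1 without Alb B, 2 without BLKO A and 3 without BLKO C. Socs3, a feedback inhibitor of the cytokine signal that drives these genes, was at 3.15, 5.77 and 1.83 CPM in BLKO livers, against 8.01, 9.89 and 7.83 CPM in Alb livers. BLKO livers were lower throughout, and the difference of -1.29 ± 0.47 (adjusted p = 0.121) was not called.

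Markers of Kupffer cells, the resident macrophages of the liver, were lower in BLKO livers: 7 of 13 tested genes fell and all 13 had a negative fold change (median -1.24). The marker list summed to 247, 230.3 and 277 CPM in BLKO livers, against 407, 607 and 745 CPM in Alb livers, and no marker was at 0 in every library of a group. The sums did not overlap. At 21% oxygen they overlapped, at 250 to 302 CPM in BLKO livers and 205 to 376 CPM in Alb livers, where Cd14 rose, none fell and the median was -0.04. The call of Cd14 was lost without BLKO A (adjusted p = 0.149), without BLKO B (0.0574), without Alb B (0.118), without Alb C (0.0549) and when only the 2 groups were fitted (0.0974). Fewer cells of a type and less RNA per cell cannot be told apart in bulk liver.

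C1qa, C1qb and C1qc encode the chains of complement C1q, which macrophages make. C1qb was at 41.3, 36.5 and 40.8 CPM in BLKO livers, against 68.4, 108 and 122 CPM in Alb livers. Its groups did not overlap, at -1.34 ± 0.28 (adjusted p = 0.0026). C1qc was at 27.5, 26.9 and 36.5 CPM in BLKO livers, against 50.9, 84.8 and 105 CPM in Alb livers. It differed by -1.41 ± 0.29 (adjusted p = 0.00214), and C1qa by -1.16 ± 0.25 (adjusted p = 0.00354). Lyz2, macrophage lysozyme, was at 22.4, 17.3 and 18.6 CPM in BLKO livers, against 33.5, 50.6 and 53.0 CPM in Alb livers. The difference was -1.25 ± 0.30 (adjusted p = 0.00838), and these 4 calls held under every alternative. Clec4f (chromosome 6, 83644542 to 83656187), a lectin specific to Kupffer cells, was at 37.8, 40.4 and 42.9 CPM in BLKO livers, against 62.7, 89.4 and 116 CPM in Alb livers. BLKO livers were tight and below all Alb livers, at -1.16 ± 0.27 (adjusted p = 0.00763), lost without Alb C (adjusted p = 0.0726). Csf1r, the receptor that keeps macrophages alive, was at 21.2, 17.7 and 19.5 CPM in BLKO livers, against 26.4, 45.3 and 64.4 CPM in Alb livers. It differed by -1.26 ± 0.31 (adjusted p = 0.0111), lost without BLKO B (adjusted p = 0.0564) and without Alb C (0.133). Cd5l, a secreted macrophage protein, fell by 1.24 ± 0.34 on the log2 scale (adjusted p = 0.0279), lost without BLKO A (adjusted p = 0.127), without BLKO B (0.102) and without Alb C (0.223). Of the 6 markers not called, Vsig4, Folr2, Cd68, Adgre1, Marco and Cd14, log2 fold changes ran from -2.08 for Vsig4 to -0.45 for Cd14. The number of fallen markers was 4 without Alb C, 5 without BLKO B, 6 without BLKO A, 8 without Alb A, 8 by DESeq2 and 8 when only the 2 groups were fitted. Vsig4 was called without Alb A (adjusted p = 0.0226) and by DESeq2 (adjusted p = 0.0425), and Folr2 when only the 2 groups were fitted (adjusted p = 0.0266).

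The change of the Kupffer marker difference with oxygen was not called by edgeR for any of the 13 genes, 9 of which had an unadjusted p under 0.05, and was called for 1 by DESeq2. For C1qb it was -1.49 ± 0.40 (adjusted p = 0.116) and for Clec4f -1.04 ± 0.39 (adjusted p = 0.339). At CT16 under 6% oxygen none of the 13 was called by edgeR or by DESeq2, 3 had an unadjusted p under 0.05 and the median was -0.51, while 5 fell without Alb A of CT16; C1qb there was at -0.71 ± 0.27 (adjusted p = 0.106).

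**Figure D4:**
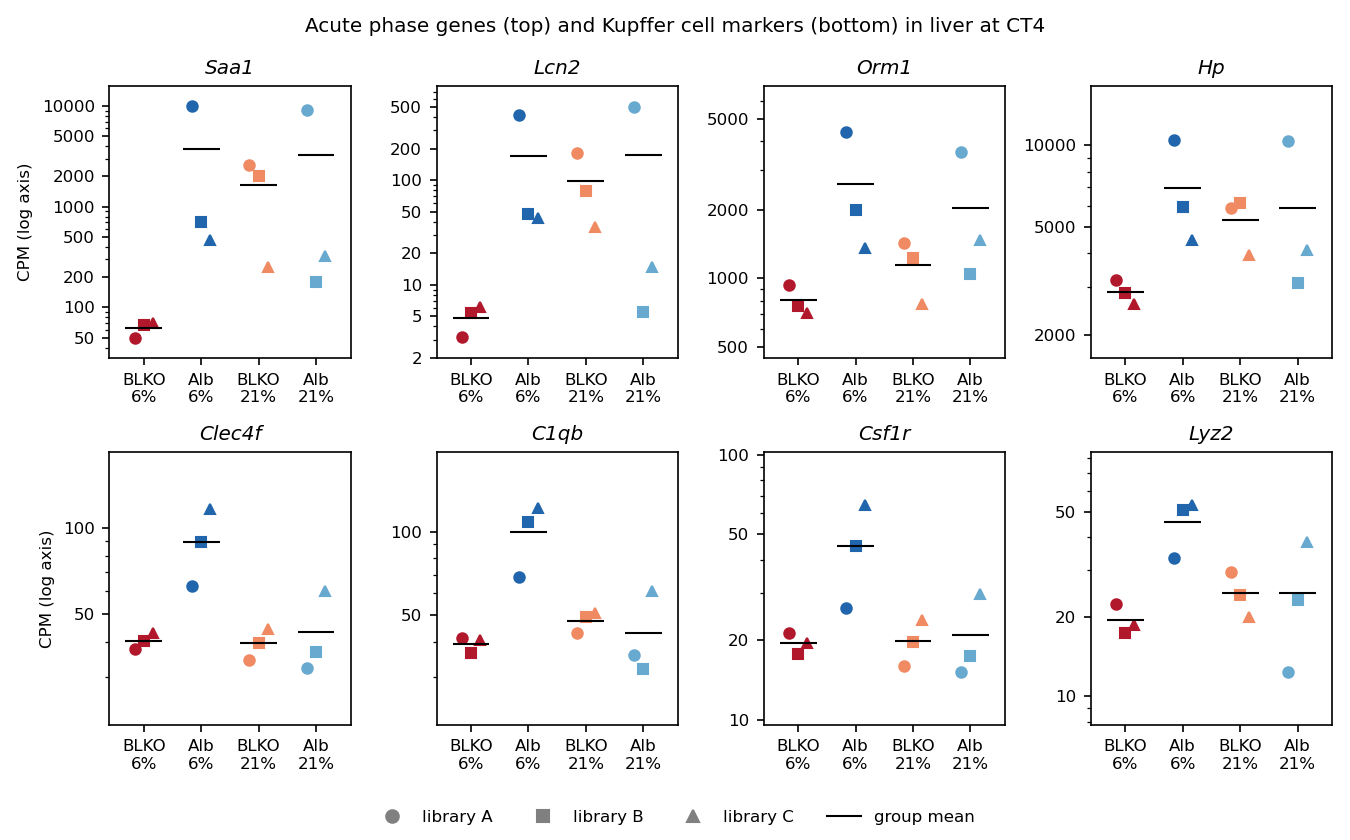
Levels in CPM on a log axis of 4 acute phase genes (top) and 4 Kupffer cell markers (bottom) in the 3 libraries of BLKO and Alb livers at CT4 under 6% and 21% oxygen; black lines are group means. Alb A is the highest library of its group for all 4 acute phase genes at each oxygen level, and the 3 BLKO libraries under 6% oxygen lie below all 3 Alb libraries in every panel.

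Few markers of the other liver cells were called. Of 18 endothelial markers none was called by edgeR or DESeq2 and 1 had an unadjusted p under 0.05; their sum was 375 to 435 CPM in BLKO livers and 403 to 447 CPM in Alb livers. None of 10 stellate cell and fibroblast markers was called by either tool, with none at an unadjusted p under 0.05. Of 4 tested cholangiocyte markers Sox9, a factor of bile duct cells, rose by 1.12 ± 0.33 (adjusted p = 0.0456), lost without any 1 of the 6 libraries (adjusted p = 0.0556 to 0.172). Among the 13 hepatocyte markers 1 was called, albumin itself. Alb (chromosome 5, 90460897 to 90476602) was at 22601, 24607 and 22692 CPM in BLKO livers, against 37937, 40861 and 37170.4 CPM in Alb livers. The groups did not overlap, with a log2 fold change of -0.73 ± 0.14 (adjusted p = 0.000808) that held under every alternative. The other hepatocyte genes Ttr and Ahsg, both major plasma proteins, stood at 0.10 and 0.28. At 21% oxygen Alb differed by -0.62 ± 0.14 (adjusted p = 0.00309) and at CT16 by -1.01 ± 0.14 (adjusted p = 3.11e-06).

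The pancreatic list held Cela1, an elastase that is also made outside the pancreas, which was at 275, 230.3 and 218 CPM in BLKO livers, against 75.0, 76.4 and 50.3 CPM in Alb livers. Every BLKO library was far above every Alb library, at 1.85 ± 0.16 (adjusted p = 1.86e-09). Cela2a, another pancreatic elastase, was at 1.97, 2.31 and 2.43 CPM in BLKO livers, against 2.36, 2.66 and 4.70 CPM in Alb livers, and was not called. Ctrb1, a defining marker of the list, was at 0 in all BLKO libraries at both oxygen levels and in all Alb libraries at 21% oxygen. Under 6% oxygen Ctrb1 was not at 0 in every Alb library. Cfd, which fat tissue secretes, was at 0, 0 and 0 CPM in BLKO livers, against 0, 3.04 and 22.6 CPM in Alb livers. The groups overlapped at 0, and its call was lost without BLKO A (adjusted p = 0.0923), without BLKO B (0.091), without BLKO C (0.105), without Alb C (0.381) and when only the 2 groups were fitted (0.0856).

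Chaperones and secretory stress genes leaned on Alb A as well. Of 18 heat shock chaperones 4 fell and none rose (median 0.02, and -0.05 to 0.15 with 1 library left out), and 1 fell without Alb A or when only the 2 groups were fitted and 2 without BLKO A. Hspb8, a small heat shock protein, was the one that held under every alternative, at 159.7, 154 and 150.003 CPM in BLKO livers, against 369, 269 and 273 CPM in Alb livers. The BLKO values were all below the Alb values, at -0.97 ± 0.17 (adjusted p = 0.000369). Hspb1, the small heat shock protein HSP25, was at 19.7, 11.9 and 20.4 CPM in BLKO livers, against 134, 42.2 and 28.6 CPM in Alb livers. Alb A was several times the other controls, and the difference of -1.92 ± 0.40 (adjusted p = 0.00269) was lost without Alb A (adjusted p = 0.106, log2 fold change -1.0) and when only the 2 groups were fitted (0.0523). Of 28 genes of the integrated stress and unfolded protein response Fgf21 rose and 4 fell, and 1 fell without Alb A or when only the 2 groups were fitted and 2 without BLKO A. The 4 were Trib3, Creld2, Manf and Hsp90b1, the last at -0.82 ± 0.25 (adjusted p = 0.0477) and named after its values were seen. Its call was lost without BLKO A (adjusted p = 0.081), without BLKO B (0.172), without BLKO C (0.131), without Alb A (0.563, log2 fold change -0.31), without the low-count filter (0.0515), with a replicate block (0.0528) and when only the 2 groups were fitted (0.15). Trib3, a pseudokinase induced by nutrient stress, was at 3.93, 4.23 and 9.43 CPM in BLKO livers, against 23.6, 27.4 and 17.2 CPM in Alb livers. BLKO livers were lower throughout, at -1.88 ± 0.38 (adjusted p = 0.00191), under every alternative. Creld2, a chaperone of the endoplasmic reticulum, was at 28.7, 28.4 and 35.6 CPM in BLKO livers, against 405, 60.5 and 50.1 CPM in Alb livers. Alb A was far above the other controls, and the difference of -2.44 ± 0.56 (adjusted p = 0.00665) was lost without Alb A (adjusted p = 0.398, log2 fold change -0.82) and when only the 2 groups were fitted (0.0646).

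Among single genes of other lists, Ulk1, the kinase that starts autophagy, was at 73.2, 69.6 and 86.4 CPM in BLKO livers, against 125, 149.8 and 149.9 CPM in Alb livers. Every BLKO library was well below every Alb library, at -0.89 ± 0.15 (adjusted p = 0.000207), and no alternative ended the call. Sqstm1, the autophagy receptor p62, fell by 0.39 ± 0.10 on the log2 scale (adjusted p = 0.0225), lost without BLKO B (adjusted p = 0.0838), without BLKO C (0.0651), without Alb B (0.0996), without Alb C (0.0529) and when only the 2 groups were fitted (0.121). Ccnd1, cyclin D1, was at 15.3, 20.8 and 14.3 CPM in BLKO livers, against 51.4, 38.4 and 64.2 CPM in Alb livers. Its groups did not overlap, at -1.63 ± 0.44 (adjusted p = 0.0231), lost without BLKO A (adjusted p = 0.0861), without BLKO C (0.101) and without Alb C (0.0999). Fkbp5, a glucocorticoid target, was at 14.6, 18.8 and 22.8 CPM in BLKO livers, against 38.7, 43.0 and 32.0 CPM in Alb livers. It fell by 0.99 ± 0.25 on the log2 scale (adjusted p = 0.0166), lost without BLKO A (adjusted p = 0.0999), without BLKO B (0.0555) and without Alb B (0.0759). The autophagy and lysosome list held 17 tested genes, of which 2 fell, and the cell cycle list 10, of which 2 fell. No gene rose in either list. Of 21 tested glucocorticoid genes 2 fell and 1 rose (median -0.00084). Among all tested genes 2.82% fell and 2.18% rose. With 1 library left out, 1 to 2 of the 17, 0 to 2 of the 10 and 0 to 2 of the 21 fell. None of 20 immediate early genes was called by edgeR or DESeq2, with none at an unadjusted p under 0.05; Jund stood at -0.02 and Zfp36 at 0.01.

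Whether the genotype difference changed with oxygen was tested directly, and 18 of 9483 genes (0.190%) were called, 4 (0.0422%) with a more positive and 14 (0.148%) with a more negative BLKO over Alb log2 fold change under 6% than at 21% oxygen. Cdkn1a (chromosome 17, 29090976 to 29100727), the cell cycle inhibitor p21, had the clearest change. Under 6% oxygen it was at 239, 251 and 249 CPM in BLKO livers, against 179, 148 and 177 CPM in Alb livers. At 21% oxygen it was at 214, 193 and 209 CPM in BLKO livers, against 11.3, 12.5 and 10.4 CPM in Alb livers. BLKO livers were alike at both oxygen levels, and Alb livers were low at 21% oxygen only. The genotype difference was 0.55 ± 0.16 (adjusted p = 0.037) under 6% oxygen, lost without any 1 of the 6 libraries (adjusted p = 0.0612 to 0.164), and 4.17 ± 0.20 (adjusted p = 2.16e-16) at 21% oxygen. The change between them was -3.62 ± 0.25 (adjusted p = 1.57e-11), which held under every alternative.

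The metallothioneins Mt1 and Mt2, which bind zinc and respond to stress hormones, also had a more negative BLKO over Alb log2 fold change under 6% than at 21% oxygen. Mt2 (chromosome 8, 94172664 to 94173568) was at 1402, 1863 and 1348 CPM in BLKO livers, against 4910.2, 4217 and 2869.8 CPM in Alb livers under 6% oxygen. BLKO livers lay below Alb livers, but the difference of -1.38 ± 0.63 (adjusted p = 0.252) was called only when the 2 groups were fitted alone (adjusted p = 0.00219). At 21% oxygen Mt2 was at 4623, 4163 and 829 CPM in BLKO livers, against 409, 71.9 and 96.6 CPM in Alb livers. There the order was turned round, with BLKO livers above Alb livers by 4.06 ± 0.70 (adjusted p = 0.00018). The change of the Mt2 difference with oxygen was -5.44 ± 0.93 (adjusted p = 0.00393) and held under every alternative. Mt1 changed by -4.01 ± 0.80 (adjusted p = 0.0191), lost without BLKO A of the 6% livers (adjusted p = 0.0752), without BLKO C of the 6% livers (0.0846), without Alb A of the 6% livers (0.068), without BLKO A of the 21% livers (0.0851), without BLKO B of the 21% livers (0.0574), without Alb B of the 21% livers (0.0884), without Alb C of the 21% livers (0.072) and when only the 4 groups were fitted (0.0812). Fam222a, a gene of little known function, was at 37.0, 24.2 and 29.8 CPM in BLKO livers, against 42.4, 33.1 and 34.0 CPM in Alb livers under 6% oxygen. At 21% oxygen it was at 42.5, 38.8 and 23.6 CPM in BLKO livers, against 3.88, 4.87 and 6.70 CPM in Alb livers. The genotypes overlapped under 6% oxygen and stood far apart at 21% oxygen, a change of -2.98 ± 0.47 (adjusted p = 0.00203) that held under every alternative. Scara5, a ferritin receptor, was at 3.93, 3.08 and 2.43 CPM in BLKO livers, against 17.4, 2.28 and 7.61 CPM in Alb livers under 6% oxygen and at 46.2, 26.6 and 23.3 CPM in BLKO livers, against 12.0, 2.44 and 4.27 CPM in Alb livers at 21% oxygen. Its difference changed by -3.84 ± 0.73 (adjusted p = 0.0155), lost without BLKO C of the 6% livers (adjusted p = 0.0835), without Alb A of the 6% livers (0.0994), without BLKO A of the 21% livers (0.0698), without Alb B of the 21% livers (0.063), without Alb C of the 21% livers (0.0617) and when only the 4 groups were fitted (0.105).

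In the other direction Zcchc2, a zinc finger protein, was at 22.4, 20.4 and 21.6 CPM in BLKO livers, against 8.49, 10.3 and 13.0 CPM in Alb livers under 6% oxygen. BLKO livers lay above all Alb livers, at 0.97 ± 0.22 (adjusted p = 0.00593), under every alternative. At 21% oxygen Zcchc2 was at 26.6, 19.2 and 26.5 CPM in BLKO livers, against 25.1, 36.9 and 31.7 CPM in Alb livers, and the groups overlapped. The change of its difference with oxygen was 1.35 ± 0.29 (adjusted p = 0.04), lost without BLKO A of the 6% livers (adjusted p = 0.0889), without BLKO B of the 6% livers (0.059), without BLKO C of the 6% livers (0.124), without Alb A of the 6% livers (0.131), without Alb B of the 6% livers (0.0905), without BLKO A of the 21% livers (0.0851), without BLKO B of the 21% livers (0.156), without Alb B of the 21% livers (0.187), without Alb C of the 21% livers (0.072), with a replicate block (0.0566) and when only the 4 groups were fitted (0.093). The other 3 with a more positive log2 fold change under 6% oxygen were 2310001H17Rik, at 0.70 under 6% and -0.88 at 21% oxygen, Cfap20, at 0.57 and -0.59, and Fam20c, at -0.42 and -1.48. The number of genes called in this test was 9 without BLKO A, 5 without BLKO C and 7 without Alb A of the 6% livers. It was 5 without BLKO A, 11 without BLKO B, 29 without BLKO C, 63 without Alb A, 5 without Alb B and 4 without Alb C of the 21% livers.

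**Figure D5:**
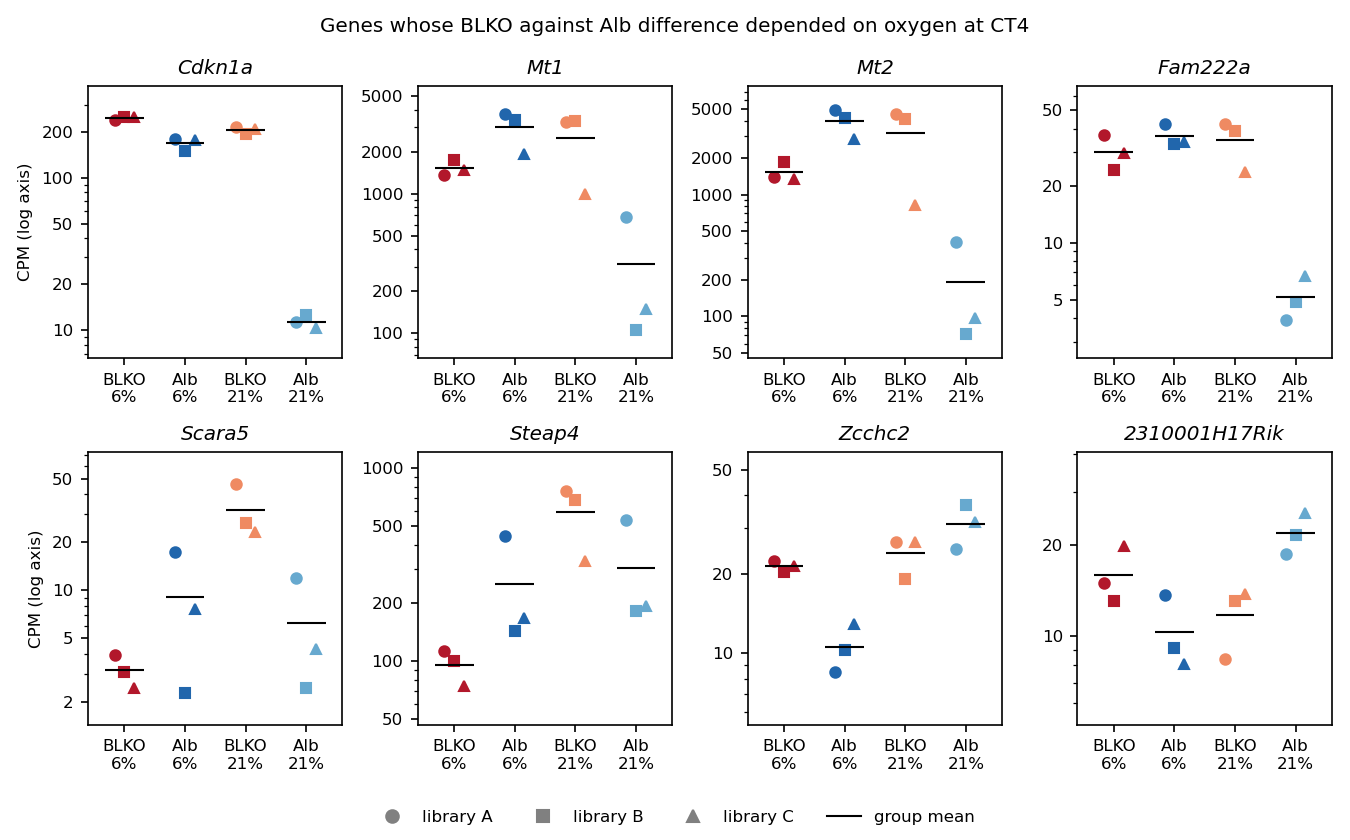
Levels in CPM on a log axis of 8 genes whose BLKO over Alb difference changed with oxygen at CT4, in the 3 libraries of each group; black lines are group means. Cdkn1a, Mt1, Mt2 and Fam222a are low in Alb livers at 21% oxygen and not in the other 3 groups, while Zcchc2 and 2310001H17Rik are lowest by mean in Alb livers under 6% oxygen.

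Under 6% oxygen the genotype difference was also set against the one of livers exposed from CT16, and 71 genes (0.749%) changed, 21 (0.221%) with a more positive and 50 (0.527%) with a more negative log2 fold change at CT4 than at CT16. Cry1 was at 60.7, 60.7 and 54.7 CPM in BLKO livers, against 27.8, 30.3 and 30.8 CPM in Alb livers at CT16. The genotypes differed in the same direction as at CT4, but less, and the change was 1.68 ± 0.29 (adjusted p = 0.00215). Manf, a secreted chaperone of the endoplasmic reticulum, was at 155, 142 and 168 CPM in BLKO livers, against 658, 237 and 244 CPM in Alb livers at CT4 and at 601, 642 and 626 CPM in BLKO livers, against 185, 296 and 259.7 CPM in Alb livers at CT16. The genotype order was opposite at the 2 times, with a change of -2.62 ± 0.45 (adjusted p = 0.00215). Gmppb, an enzyme of mannose activation, changed by -2.56 ± 0.49 (adjusted p = 0.00524), and the calls of these 3 genes in this test held under every alternative. At CT4 alone Manf was lost without BLKO A (adjusted p = 0.053), without BLKO B (0.0654), without Alb A (0.277, log2 fold change -0.63) and when only the 2 groups were fitted (0.052), and without Alb A of CT4 29 genes passed the test between the times. The count was 37 without BLKO C of CT4, 43 without BLKO B of CT16 and 39 without Alb A of CT16.

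Genes near the targeted locus were counted apart. Within 10 Mb of Arntl on chromosome 7, 4 of 77 tested genes were called (5.19%), against 5.02% of all tested genes with a position, so the share was near the background. They were Tead1, Gde1, Hpx and Trim12a. Tead1, a transcription factor of the Hippo pathway that lies 0.30 Mb from Arntl, was at 0.787, 1.15 and 3.35 CPM in BLKO livers, against 12.7, 7.99 and 6.49 CPM in Alb livers. Its BLKO libraries were all below its Alb libraries, at -2.19 ± 0.41 (adjusted p = 0.000814). Gde1, a phosphodiesterase 5.37 Mb away, was at 71.2, 69.6 and 65.4 CPM in BLKO livers, against 127, 110.3 and 114 CPM in Alb livers. It was lower by a small and even margin, at -0.77 ± 0.11 (adjusted p = 2.11e-05). Both were also called at 21% oxygen and at CT16, as was Trim12a, 8.89 Mb away; Tead1 at 21% oxygen was lost without BLKO C (adjusted p = 0.0543). Hpx, hemopexin, an acute phase protein 7.61 Mb away, was at 4605, 4525 and 4485 CPM in BLKO livers, against 12934, 6959 and 6655 CPM in Alb livers. Its difference of -0.96 ± 0.29 (adjusted p = 0.0459) was lost without BLKO A (adjusted p = 0.117), without BLKO B (0.125), without BLKO C (0.124), without Alb A (0.338, log2 fold change -0.58), with a replicate block (0.051) and by DESeq2 (0.0553).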

How the data were processed

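Liver RNA was sequenced, and the authors deposited raw counts per gene for 36 libraries. Per the submitters' processing notes, the tools were cutadapt, STAR 2.4.2a, HTSeq and DESeq2 on mm10; the use of strand, molecular identifiers and any gene filter are not given in the sources used here. The 36 columns of normalized per-sample values were not used, and 3 samples without count columns are not analysed here.

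Libraries were grouped by genotype, time and oxygen labels. Counts were scaled by TMM and tested with edgeR 4.0.16 (R 4.3.3) by the quasi-likelihood test on all 12 groups without a block, for 9483 of 11873 genes that passed filterByExpr at a count minimum of 10. Adjusted p is Benjamini-Hochberg over all tested genes, called under 0.05. CPM is printed on the TMM scale. The scripts were tested on simulated data. Alternatives were DESeq2 1.42.0, RLE scaling, no low-count filter, the compared groups alone, a replicate block and leaving out each library. No block was used in the main test because the labels do not say that replicate letters mark anything shared. Same-letter deviations in the 6% pair correlated at -0.027, -0.077 and 0.071. Those of Alb livers at CT4 between 6% and 21% oxygen correlated at 0.20, -0.11 and 0.0091. With 3 libraries a group these values cannot decide whether letters pair the libraries.

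Positions are from GENCODE M21 on GRCm38, for 98.2% of genes, and promoters from RefSeq. Named genes were clock and HIF genes, up to 12 called genes at each end with libraries that did not overlap and a mean of at least 5 CPM, up to 4 called members and 2 abundant members not called of each of 41 lists, the largest changes with oxygen and time, and called genes near Arntl. The comparison, lists and rules were chosen with earlier results of these data known. Some genes that the rule picks are not reported here.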

Additional observations from a re-analysis of the deposited data

Results flagged for a closer look

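In 19 named genes the BLKO over Alb difference itself differed between 2 conditions by a test of that difference, edgeR's contrast of contrasts with Benjamini-Hochberg adjustment over all tested genes. All values are log2, with 3 libraries in each of the 4 groups of a test.

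With 6% oxygen set against 21% oxygen at CT4, the difference was more negative for Mt2 (-5.44), Mt1 (-4.01), Scara5 (-3.84), Cdkn1a (-3.62), Fam222a (-2.98), Steap4, a metalloreductase (-2.34), and Hspb8 (-1.12). It was more positive for 2310001H17Rik (1.58), Zcchc2 (1.35), Cfap20 (1.15) and Fam20c (1.06). Of these 11 genes Mt2, Cdkn1a and Fam222a kept the call under all 18 alternatives run for this test. Steap4, Hspb8 and Cfap20 kept it under 9 of the 18, 2310001H17Rik under 8 and Fam20c under 5.

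With CT4 set against CT16 under 6% oxygen, the difference was more positive for Cnmd, which encodes chondromodulin (2.47), the pseudogene Marcksl1-ps4 (2.32), Me1, malic enzyme (2.01), and Cry1 (1.68). It was more negative for Creld2 (-4.06), Manf (-2.62), Gmppb (-2.56) and Nr1d1 (-2.34). Cry1, Manf and Gmppb kept the call under all 17 alternatives. Creld2 lost it without Alb A of CT4 (adjusted p = 0.0608 by edgeR), the library that stood highest for it. Me1 kept the call under 6 of 17 alternatives, Nr1d1 under 5 of 17 and Marcksl1-ps4 under 6 of 16.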

How the results depend on the processing

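Counts of called genes moved with the libraries that were fitted and, in the tests of a change with oxygen or time, also with the tool. Leaving out 1 library gave 279 to 371 genes for BLKO against Alb livers under 6% oxygen at CT4 (474 with all libraries) and 424 to 638 at 21% oxygen (706). It gave 4 to 63 for the change with oxygen (18) and 29 to 85 for the change with time (71). Leaving out Alb A of both oxygen levels at CT4, an alternative chosen after the data were seen, gave 364, 656 and 21 genes in the first 3 of these tests. Of the 474 genes, 259 to 313 kept their call when 1 library was left out. Fitting the compared groups alone, with fewer libraries behind the spread, gave 322 genes under 6% oxygen, 540 at 21% oxygen, 5 for the change with oxygen and 41 for the change with time. DESeq2 gave 489, 687, 48 and 134 genes in the same tests; the cause of the larger counts in the last pair was not tested. With a replicate block by letter the counts were 442, 682, 15 and 56, and 887 at CT16 under 6% oxygen beside 896 without it. RLE scaling and testing without the low-count filter gave counts within 1.5 times of those reported in every test. Of the 102 named genes called under 6% oxygen at CT4, 41 kept the call under every alternative and 61 lost it under 1 or more, and none of the 102 changed sign. With 3 libraries a group and 1717589 to 5196957 counts a library, small differences and differences in genes of low count can be missed. A gene without a call is not shown to be alike in both genotypes. The cause of a lost call was not tested.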
